A study of Mus musculus with 11 samples.

Results

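The kinesin, dynein and dynactin motors were followed in RNA-Seq of mouse dorsal root ganglia (DRGs), where the somata of sensory neurons lie wrapped by satellite glial cells (SGCs). Members were the rows of the deposited table whose gene name is *Kif* followed by a digit or starts with *Dync*, *Dynl* or *Dctn*, with no hyphen. This rule took 60 of 36670 genes, namely 38 kinesins, 16 dynein genes and 6 dynactin genes, and used no measured value. The related genes named *Kifc*, *Kifap3* and *Kifbp* fall outside the rule, as do pseudogenes with a hyphen in their name.

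The study made 11 libraries of poly(A) RNA from DRGs in 4 groups, and each library is taken here as 1 mouse, which the labels do not state outright. The groups were 3 WT controls, 3 WT mice at 4 weeks after paclitaxel (PTX), 3 controls and 2 PTX mice with a constitutive knockout (KO) of *Gpr37l1*, a receptor gene of SGCs. The KO line carries the Gpr37l1 tm1Lex allele from a stock of mixed strain origin and was kept with its littermates on a C57BL/6 background. The labels give neither the PTX dose nor the age of these mice, and name the groups without PTX as control, with no agent given. The sample descriptions mark the control groups V and the PTX groups P, and do not spell out V. By the numbers of the sample descriptions, replicate 3 was labelled female in each group and the other replicates male. Nothing in the labels says that the ganglia of 1 mouse were kept apart by spinal level.

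Motor proteins walk along microtubules. Most kinesins move cargo toward the axon terminal, while cytoplasmic dynein, with its cofactor dynactin, moves cargo back to the cell body, and sensory neurons depend on both because their axons are among the longest of the body. PTX binds and stabilizes microtubules, the track of these motors, and causes a painful neuropathy. Other kinesins work in the spindle of dividing cells or in cilia, and mature neurons do not divide.

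The highest members in the DRGs were genes listed here for axonal transport, and most of them had similar levels in the 4 groups. Bulk RNA does not assign them to neurons or axons. *Dynll2*, *Kif5a*, *Dynlt3*, *Dynlrb1* and *Kif1a* led, while spindle kinesins were near the lower end of the range. No member passed an adjusted p of 0.05 with edgeR in any comparison of treatment or genotype (0 of 43 tested members in each of 6 comparisons). DESeq2 called 0 members in each as well. Of all 15087 tested genes, DESeq2 called 309 for PTX in WT mice and 29 for PTX in KO mice. For KO against WT it called 42 in controls, 10 after PTX and 28 over both treatments. For the difference of the PTX effect between genotypes it called 12. The largest log2 differences at an unadjusted p under 0.05 were in *Dynlt1b*, *Kif22* and *Dynlt1c*. *Dynlt1b* and *Dynlt1c* are copies with a nearly identical coding sequence, and their differences were smaller without 1 library, WT control 1, while those of *Kif22*, for KO against WT after PTX and for the difference of the PTX effect between genotypes, were 0.68 and 0.84 with it and 0.69 and 0.87 without it.

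Sequences that bear on how far genes can be told apart are shown first. *Dynlt1a*, *Dynlt1b*, *Dynlt1c* and *Dynlt1f* encode the same kind of dynein light chain (Tctex type) and lie on chromosome 17 of GRCm38, with transcripts at chr17:6307994-6317500, chr17:6430112-6436296, chr17:6601671-6609679 and chr17:6648938-6655900. Their coding sequences in GENCODE release M21 are 342 bases long and differ at 1 position, base 21 counted from the start codon. The first 30 coding bases are given 5′ to 3′, with that base in capitals.
*Dynlt1b*: atggaagacttccaggcctcAgaggagact
*Dynlt1c*: atggaagacttccaggcctcCgaggagact
*Dynlt1a* and *Dynlt1f* carry the same 30 bases as *Dynlt1c*. Of all windows of 100 bases in the transcript, 82.0% for *Dynlt1b*, 85.1% for *Dynlt1f*, 61.2% for *Dynlt1c* and 41.3% for *Dynlt1a* were found unaltered in another copy. The split of reads among these 4 genes is therefore uncertain.

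*Dynll1* and *Dynll2*, the pair of LC8 light chains that dynein shares with many other protein complexes, serve as a contrast, since the result on the level of *Dynll2* needs the pair to be separable. Their coding sequences have 270 bases each and 51 differences (81.1% identity), and the longest stretch without a difference has 16 bases. The first 30 coding bases are given 5′ to 3′, with differing bases in capitals.
*Dynll1*: atgtGCgaccggaaggcGgtgatcaaAaaT
*Dynll2*: atgtCTgaccggaaggcAgtgatcaaGaaC

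Expression was read as FPKM, the level scaled by the authors for transcript length and library size, so that levels can be compared between genes. In the 3 WT controls, 5 members had a mean of at least 100 FPKM, 21 lay from 10 to under 100, 11 from 1 to under 10 and 21 above 0 but under 1, and 2 members were listed at 0. A mean over all 11 libraries of at least 0.5 FPKM was required for tests, which 43 members passed: 22 kinesins, 15 dynein genes and all 6 dynactin genes. Ranked by the mean of the WT controls, 44 of the 59 neighbouring pairs of members overlapped among the 3 mice, so most neighbours were not separated beyond their spread.

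Several facts of the libraries bear on these genes. Estimated counts summed to between 52740000 and 80350000 per library, and WT control 1 had the lowest sum. *Gpr37l1* was at 14.6 to 35.7 FPKM in WT mice and 0.21 to 1.15 FPKM in KO mice, as the genotype labels require. All 15 sensory neuron markers were found, with a summed level of 6703 to 7870 FPKM. Markers of other tissue varied more, with sums of 3.51 to 628 FPKM for 9 skeletal muscle genes and of 2.43 to 27.8 FPKM for 12 spinal cord genes, whose highest sums were 11.4 and 27.8 in the KO PTX mice and 10.6 in WT control 1. In bulk tissue, fewer cells of a type and less RNA per cell cannot be told apart.

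WT control 1 stood apart from the other libraries, in the motor genes as over all genes. Among the 29 members with a mean of at least 5 FPKM and an annotated coding transcript, WT control 1 was the lowest of 11 libraries for 13 and the highest for 8, while no other library was the lowest for more than 5 or the highest for more than 5. The median distance of a member from the median of the other 10 libraries was 0.23 on the log2 scale of FPKM, against 0.038 to 0.092 in the other libraries. Over all 6926 genes of that level the median distance was 0.20 in WT control 1 and 0.054 to 0.116 in the other libraries. The distance was therefore not particular to the motor genes. *Kif21a* was at 69.8 FPKM in this mouse and between 99.7 and 113 FPKM in the other 10. Members with long transcripts were mostly low and those with short transcripts mostly high. The rank correlation of this distance with the length of the longest coding transcript was -0.48 over the 29 members and -0.61 over 6926 genes, against -0.21 to 0.43 and -0.12 to 0.21 in the other libraries. These values describe genes of 1 library and are no test. *CT010467*, the gene with the highest level in this library, was at 14800 FPKM there and at 897 to 2889 FPKM in the other 10. For members at an unadjusted p under 0.05, fold changes against the WT controls are therefore given with and without WT control 1.

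**Figure D1:**
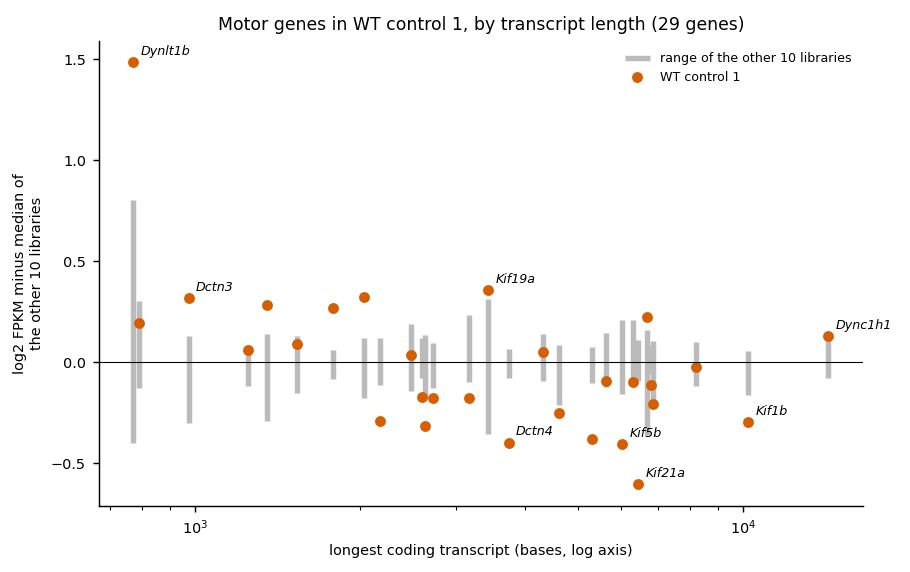
Distance of each motor gene in WT control 1 from the median of the other 10 libraries (log2 FPKM, y axis) against the length of its longest coding transcript (bases, log x axis) for 29 genes, with grey bars for the range that the other 10 libraries span. *Dynlt1b* lies far above 0 at the short end and *Kif21a* at -0.61, while many genes of WT control 1 lie outside the grey range of the other libraries.

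Kinesin-1, the main motor of anterograde transport, carries vesicles and mitochondria and is built on 1 of 3 heavy chains. *Kif5a*, the neuronal heavy chain whose human gene is mutated in hereditary axon disease, was at 164, 165 and 174 FPKM in WT controls and at 177, 168 and 192 FPKM after PTX. KO controls had 168, 165 and 179 FPKM, and the KO PTX mice had 182 and 198 FPKM. The KO PTX mice were both above the 3 KO controls and the 3 WT controls, and the other pairs of groups overlapped. *Kif5c*, a second neuronal heavy chain, had a mean of 85.9 ± 6.19 FPKM in WT controls, and *Kif5b*, the heavy chain found in most tissues, 46.1 ± 6.58 FPKM (SD, n = 3). Within each mouse *Kif5a* made up 53.1% to 61.4% of the summed FPKM of the 3 genes, *Kif5c* 24.3% to 29.9% and *Kif5b* 13.8% to 17.7%. The order *Kif5a*, *Kif5c*, *Kif5b* held in all 11 mice.

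The kinesin-3 genes *Kif1a* and *Kif1b* encode fast carriers of synaptic vesicle precursors, and *Kif1b* has a form that carries mitochondria. *Kif1a* was at 116, 126 and 119 FPKM in WT controls and spanned 108 to 126 FPKM over all 11 mice. *Kif1b* was at 37.9 FPKM in WT control 1 and 41.5 to 47.9 FPKM elsewhere, and *Kif1c*, a carrier of dense core vesicles found in many cell types, spanned 4.79 to 6.92 FPKM. *Kif1a* held 68.2% to 72.1% of their sum, *Kif1b* 23.6% to 28.8% and *Kif1c* 2.96% to 4.31%. The other tested kinesin-3 genes were low. *Kif13b*, *Kif16b*, a motor of early endosomes, and *Kif13a* had means of 4.27, 3.80 and 3.44 FPKM in WT controls.

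Kinesin-2 is built from *Kif3a* with *Kif3b* or *Kif3c* and serves transport in axons and in cilia. *Kif3c*, the partner best known from neurons, was at 37.7 to 42.8 FPKM over the 11 mice and had the smallest coefficient of variation of the 26 members with a mean of at least 10 FPKM, 3.49%. *Kif3a* was at 33.8 to 44.3 FPKM and *Kif3b* at 13.7 to 16.2 FPKM. *Kif3c* therefore held 40.9% to 45.4% of the sum and *Kif3b* 14.9% to 16.9%. The ranges of *Kif3a* and *Kif3c* did not overlap in the WT controls, but *Kif3c* was the higher of the pair in 9 of 11 mice. *Kif17*, the homodimeric kinesin-2, was at 0.76 to 1.16 FPKM and overlaps *Sh2d5* on the same strand.

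Other kinesins act on the microtubule itself. *Kif21a*, which slows microtubule growth, had 92.7 ± 20.2 FPKM in WT controls (SD, n = 3), and the 2 WT controls other than WT control 1 had 108 and 101 FPKM. Its relative *Kif21b* made up 0.744% to 1.27% of their sum. *Kif2a*, a depolymerase that trims axon branches, spanned 17.1 to 19.2 FPKM apart from WT control 1, which had 14.1 FPKM. *Kif19a*, a depolymerase of cilium tips, spanned 5.08 to 8.10 FPKM.

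**Figure D2:**
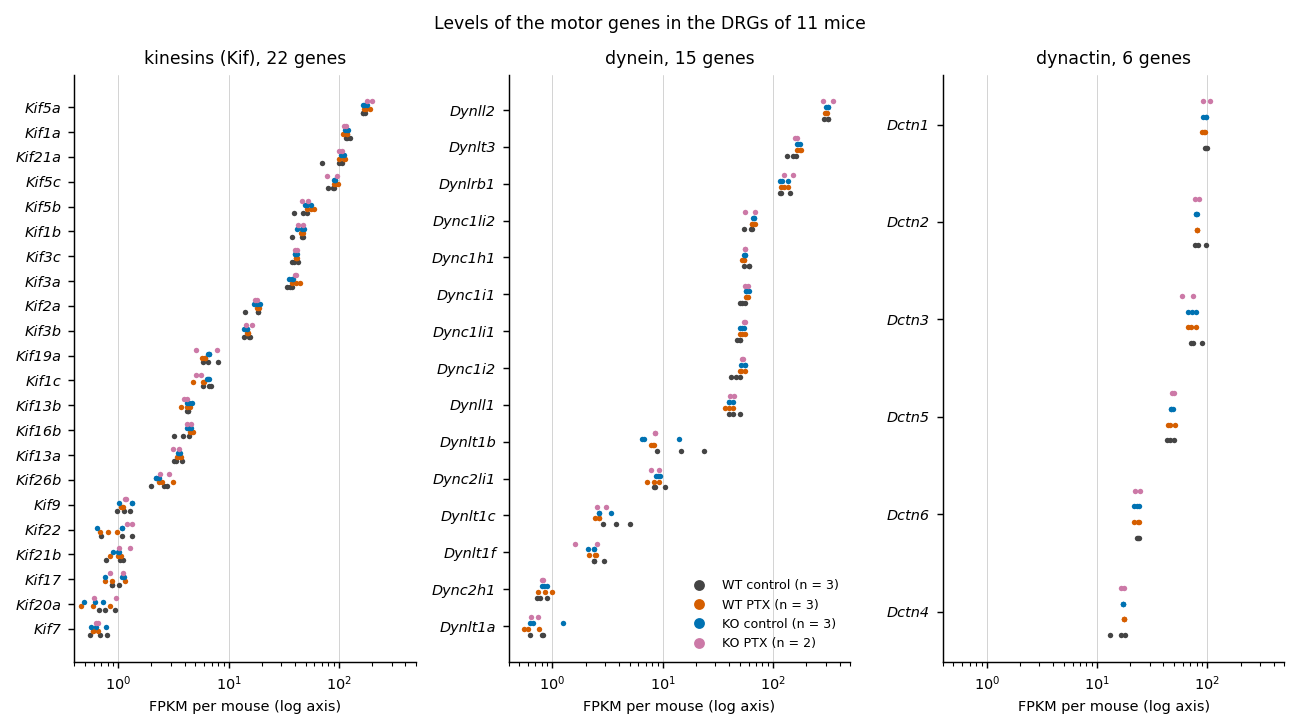
FPKM of the 43 motor genes that passed the filter (log x axis), 1 point per mouse, in 3 panels for kinesins, dynein and dynactin, with genes ordered by their mean in WT controls and colours for the 4 groups. Points of the 4 groups lie on top of each other for nearly every gene, and *Dynlt1b* is spread most widely among the genes above 10 FPKM.

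Cytoplasmic dynein was led by its small light chains. *Dynll2* had the highest level of all 60 members, with 312, 287 and 316 FPKM in WT controls and 281 to 347 FPKM over all mice. It made up 86.1% to 89.3% of LC8 expression, and *Dynll1* the rest at 36.8 to 50.3 FPKM. *Dynlt3*, a Tctex type light chain, was at 135 to 178 FPKM and *Dynlrb1*, a light chain of the roadblock type, at 115 to 152 FPKM. *Dynlrb2*, the roadblock chain of ciliated tissue, was at 0.16 to 0.81 FPKM, less than 1 hundredth of *Dynlrb1*. In the 3 WT controls *Dynlrb1* overlapped both *Dynlt3* and *Kif1a*, while each value of *Dynlt3* was above each of *Kif1a*.

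The larger dynein subunits were below *Dynll2*, *Dynlt3* and *Dynlrb1* and close to each other. *Dync1h1*, the heavy chain that holds the motor domain, had 58.3 ± 3.08 FPKM in WT controls, and the light intermediate chains *Dync1li2* and *Dync1li1*, which bind cargo adaptors, had 60.9 ± 5.63 and 49.2 ± 2.24 FPKM (SD, n = 3 each). *Dync1i1*, the neuronal intermediate chain, had 50.5, 52.2 and 56.2 FPKM and *Dync1i2*, the broadly expressed one, 45.8 ± 4.20 FPKM (SD, n = 3). Each pair was nearly balanced, with 50.2% to 54.8% for *Dync1i1* and 50.7% to 57.2% for *Dync1li2* in single mice. In all 11 mice *Dync1i1* was above *Dync1i2* and *Dync1li2* above *Dync1li1*. The dynein of cilia was lower, with *Dync2li1* at 7.22 to 10.4 FPKM and its heavy chain *Dync2h1* at 0.72 to 0.98 FPKM.

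**Figure D3:**
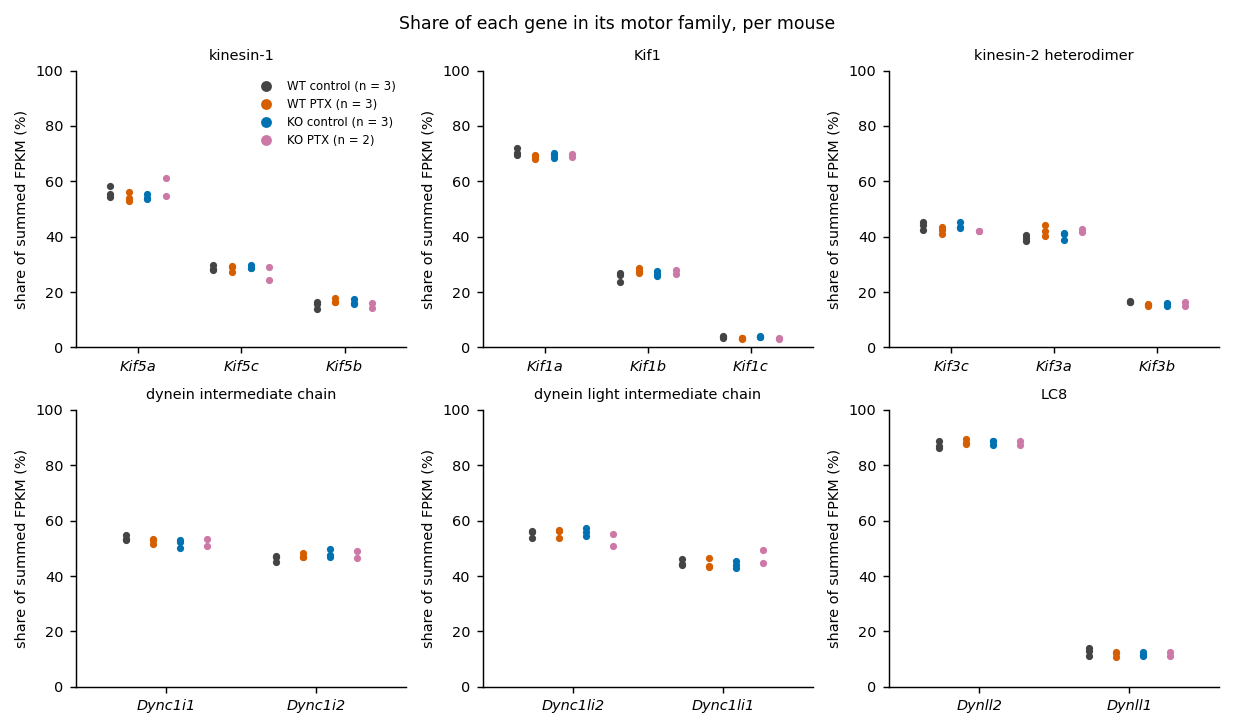
Share of each gene in the summed FPKM of its motor family (percent, y axis from 0 to 100), 1 point per mouse, coloured by group, for 6 families. *Kif5a*, *Kif1a* and *Dynll2* led their families in every mouse, and the highest point for *Kif5a*, at 61.4%, is KO PTX 3.

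Dynactin links dynein to cargo and makes it processive. *Dctn1*, its largest arm subunit and a gene mutated in human motor neuron disease, was at 99.1, 96.4 and 96.0 FPKM in WT controls. *Dctn2* had 85.2 ± 10.7 FPKM and *Dctn3* 78.5 ± 9.65 FPKM (SD, n = 3), both highest in WT control 1 of all mice. The pointed end subunits *Dctn5*, *Dctn6* and *Dctn4* had 46.3 ± 3.62, 23.6 ± 0.64 and 15.9 ± 2.49 FPKM (SD, n = 3 each). In WT control 1, *Dctn4* was at 13.2 FPKM, below the 16.5 to 18.1 FPKM of the other 10 mice. *Dctn3* shares its locus with *Il11ra1* on the opposite strand. It was lowest in KO PTX 3, at 59.1 FPKM against 66.4 to 89.5 FPKM elsewhere, and this library had the highest sum of spinal cord markers, 27.8 FPKM. The part of those markers in the value was not tested. *Dctn2* lies 3020 bases beyond *Kif5a* on chromosome 10, and both were among the 10 highest members.

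Motors of division were at low levels, and the listed motors of cilia other than *Kif3a* and *Kif3b* were at 10.4 FPKM or less in each mouse. Of 11 listed mitotic kinesins, 2 passed the filter, *Kif22*, which moves chromosomes along the spindle, at 0.64 to 1.34 FPKM, and *Kif20a*, which acts in cytokinesis, at 0.46 to 0.96 FPKM. *Kif11*, the motor that separates spindle poles, was at 0.33 to 0.63 FPKM and *Kif23*, a cytokinesis motor, at 0.23 to 0.87 FPKM. *Kif6* had a mean of 0.080 FPKM in WT controls. *Kif14* spanned 0.01 to 0.04 FPKM with 7 to 31 counts. *Kif28* had 0 to 13 counts and *Kif12* 0 to 4 counts. *Kif16bos*, annotated as an antisense gene, was listed at 0 in all libraries. Of 12 listed cilium motors, 8 passed the filter. The 10 ciliated cell markers summed to 12.5 to 14.4 FPKM in WT mice, 10.7 to 14.7 FPKM in KO controls and 13.4 and 14.97 FPKM in KO PTX mice, and the 10 markers of dividing cells to 2.48 to 7.28 FPKM.

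Member levels varied little between mice. The 26 members with a mean of at least 10 FPKM had a median coefficient of variation of 6.91% over all 11 mice, and 4.93% without WT control 1. The 4501 genes of the table at that level had medians of 8.35% and 6.74%. *Dynlt1b* varied most, by 48.2%, and by 30.6% without WT control 1. For *Kif21a* the coefficient was 11.5%, and 4.38% when WT control 1 was left out, for *Dctn4* 7.80% and 2.79%, and for *Dctn2* 6.79% and 2.75%.

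Whether PTX changed motor genes was asked first in WT mice. Of the 43 tested members, 0 passed an adjusted p of 0.05 in edgeR, where 0.00663% of all 15087 tested genes passed. The median log2 fold change of members was -0.0028, against -0.0058 for all tested genes, and 35 members had a 95% interval within 0.5 of 0 on the log2 scale, which is 1.41-fold. At an unadjusted p under 0.05 there were 8 members, 18.6% of those tested, against 13.5% of all tested genes. DESeq2 gave 8 as well. Of these, 5 were higher after PTX and 3 lower. In FPKM, 8 members did not overlap between the groups, 5 above and 3 below, and 14.2% of all tested genes did not overlap. Those above were *Kif16b*, *Dynlt3*, *Dync1i2*, *Dync1i1* and *Kif5c*, and those below were *Dynlt1b*, *Dynlt1c* and *Dctn1*.

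*Dynlt1b* was at 23.6, 8.89 and 14.7 FPKM in WT controls and at 8.33, 7.89 and 8.21 FPKM after PTX. The groups did not overlap, but the WT controls differed among themselves more than the PTX mice did. Its log2 fold change was -0.95 (SE 0.36, 95% interval -1.74 to -0.15, adjusted p = 0.33 from edgeR), and -0.53 (SE 0.35, unadjusted p = 0.16 from edgeR) without WT control 1.

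*Dynlt1c* followed the same pattern, with 5.06, 2.90 and 3.77 FPKM in WT controls and 2.64, 2.63 and 2.42 FPKM after PTX. Its log2 fold change was -0.61 (SE 0.20, adjusted p = 0.28 from edgeR) and was -0.36 (SE 0.16) without WT control 1. *Dynlt1f* and *Dynlt1a*, the other copies, overlapped between the groups. As the copies share from 41.3% to 85.1% of their windows, these 4 values are not independent.

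*Kif16b*, the endosome motor, was at 3.22, 3.84 and 4.34 FPKM in WT controls and at 4.66, 4.43 and 4.79 FPKM after PTX. Each PTX mouse was above each control. Its log2 fold change of 0.28 (SE 0.085, 95% interval 0.096 to 0.47) had the smallest adjusted p of the members, 0.26 from edgeR, and was 0.20 (SE 0.066, unadjusted p = 0.014 from edgeR) without WT control 1.

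*Dynlt3* had 135, 153 and 162 FPKM in WT controls and 178, 164 and 177 FPKM after PTX, with no overlap. Its log2 fold change was 0.20 (SE 0.074, adjusted p = 0.32 from edgeR), and 0.14 without WT control 1. For *Dync1i2* the WT controls had 41.6, 45.8 and 50.0 FPKM and the PTX mice 51.5, 50.4 and 55.4 FPKM, with no overlap either. Its log2 fold change was 0.19 (SE 0.079, adjusted p = 0.35 from edgeR), and 0.14 without WT control 1. In both genes WT control 1 was the lowest of the 11 mice.

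The other members at an unadjusted p under 0.05 overlapped between the groups. The log2 fold changes were 0.27 for *Kif5b* (95% interval 0.037 to 0.50), 0.19 for *Kif3a* (0.036 to 0.35) and -0.23 for *Kif1c* (-0.45 to -0.0046). Leaving out WT control 1 gave 0.16, 0.17 and -0.17. Without WT control 1, 2 of the 8 members kept an unadjusted p under 0.05, *Kif16b* and *Kif3a*, and no further member reached it, while 10.1% of all tested genes did. Leaving out WT PTX 1 in place of it also left 2 members. Of 8 macrophage markers, 7 were lower after PTX at an unadjusted p under 0.05 in edgeR and 0 passed the adjusted threshold, while DESeq2 called 5, with sums of 34.6 to 44.7 FPKM in WT controls and 24.1 to 29.4 FPKM after PTX. None of the 8 was at 0 in all libraries. Of 15 sensory neuron markers, 1 was higher and 5 lower at an unadjusted p under 0.05 in edgeR, against 13.5% of all tested genes. Their median log2 fold change was 0.011, and without WT control 1 such a p was held by 4. None of the 15 passed the adjusted threshold in edgeR, while DESeq2 called *Tubb3*. DESeq2 also called *Fabp7* among the satellite glia markers and *Aqp4* among the spinal cord markers. The part of all these markers in the values of the motor genes was not tested.

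Several genes of the main axonal motors had narrow intervals that included 0. For PTX in WT mice, the 95% interval of the log2 fold change ran from -0.038 to 0.22 for *Kif5a*, from -0.20 to 0.065 for *Kif1a*, from -0.25 to 0.016 for *Dync1h1*, from -0.20 to 0.16 for *Dynll2* and from -0.22 to 0.072 for *Dctn1*. *Kif21a* had a wider one, from -0.069 to 0.52, around a log2 fold change of 0.23, which was 0.058 without WT control 1. Other axonal transport genes had intervals above 0 in this comparison, namely *Dync1i2* (0.019 to 0.37), *Dynlt3* (0.040 to 0.37) and, as given above, *Kif5b* and *Kif3a*. All 6 dynactin genes, *Kif3b* and *Kif3c* had an unadjusted p above 0.05 in edgeR.

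**Figure D4:**
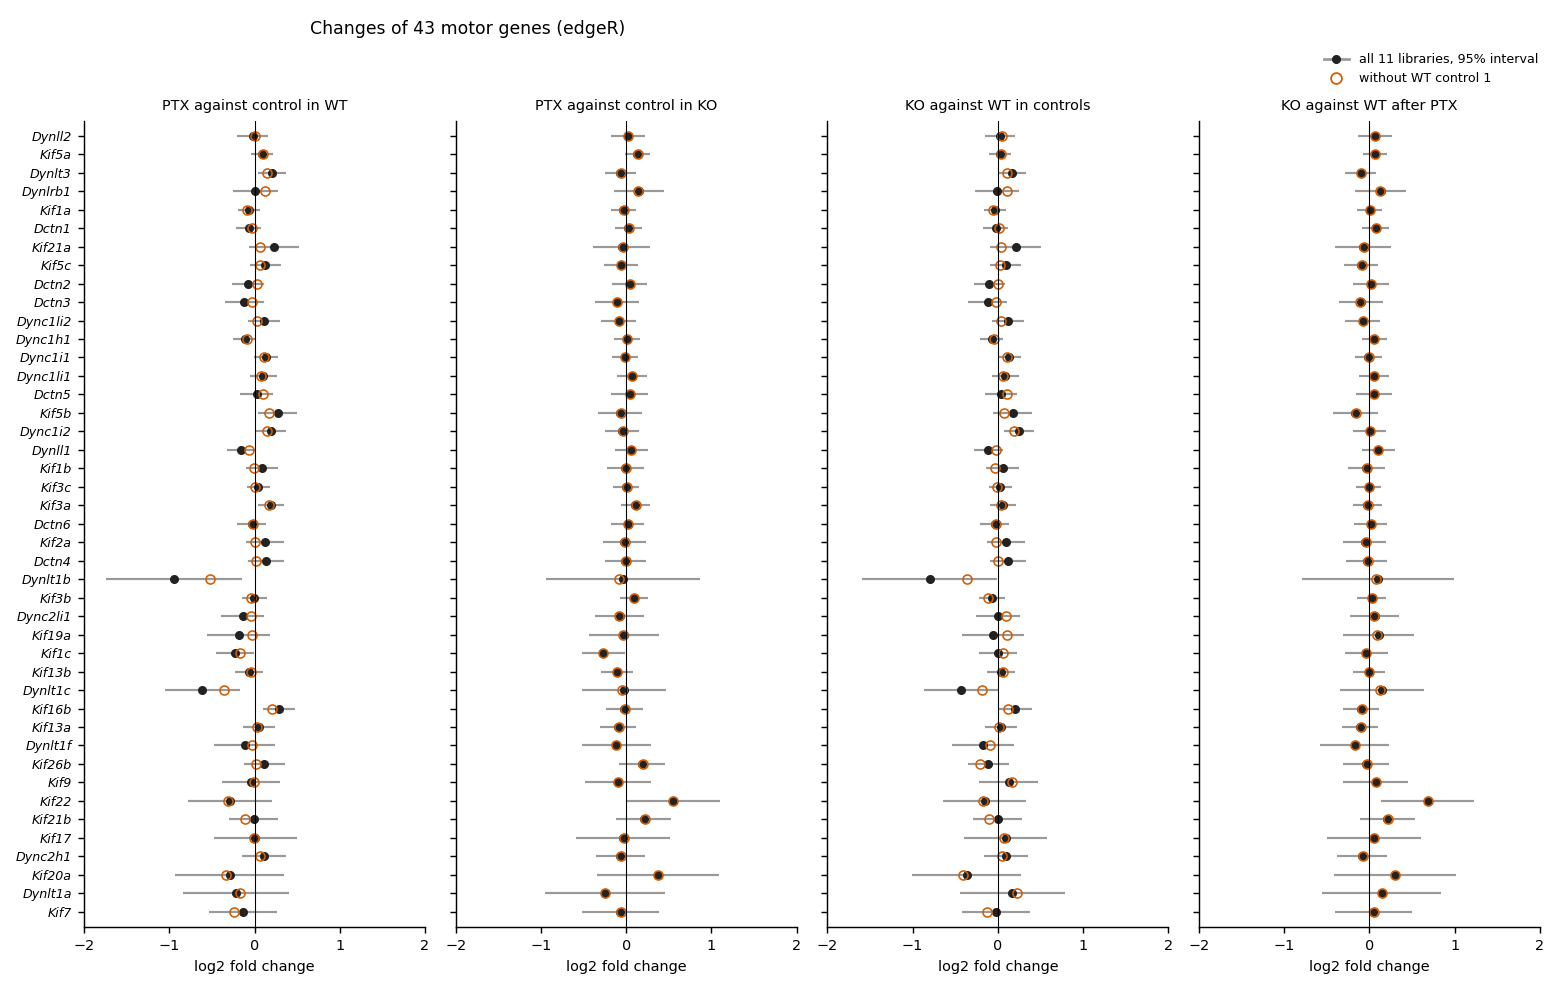
Log2 fold changes of the 43 motor genes from edgeR (x axis) in 4 comparisons, with genes ordered by their mean FPKM in WT controls, filled points and grey 95% intervals from all 11 libraries and open circles from the fit without WT control 1. In both comparisons with WT controls the open circles lie nearer to 0 for genes such as *Kif21a*, *Dynlt1b* and *Dynlt1c*, and in the other comparisons they lie on the filled points.

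In KO mice, PTX was compared between 2 PTX mice and 3 controls. No member passed the threshold (0 of 43, against 0.00663% of all tested genes). There was 1 member at an unadjusted p under 0.05 in edgeR (2.33%, against 4.32% of all tested genes) and 3 in DESeq2. This was *Kif1c*, with 6.61, 6.47 and 6.33 FPKM in KO controls and 5.02 and 5.66 FPKM after PTX. Both PTX mice were below the controls, with a log2 fold change of -0.27 (SE 0.11, 95% interval -0.52 to -0.015, adjusted p = 0.999 from edgeR). In WT mice the same gene had 6.92, 5.85 and 6.60 FPKM in controls and 5.85, 5.98 and 4.79 FPKM after PTX, with overlap. Without WT control 1 its log2 fold change in WT mice was -0.17 (unadjusted p = 0.15 from edgeR). No control animal is shared between these comparisons, but both come from 1 fit with a common estimate of the spread.

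Members that did not overlap between the KO groups numbered 5, 4 above and 1 below, and 21.6% of all tested genes did not overlap. The 4 above were *Kif5a*, *Kif3a*, *Kif26b* and *Kif22*. For *Kif5a* the log2 fold change was 0.13 (95% interval -0.013 to 0.27), for *Kif3a* 0.11 (-0.067 to 0.28), for *Kif26b* 0.18 (-0.091 to 0.45) and for *Kif22* 0.55 (-0.0011 to 1.096). The edgeR intervals of all 4 genes include 0, while DESeq2 gave *Kif22* and *Kif5a* an unadjusted p of 0.036 and 0.041. In the edgeR fit without WT control 1, the interval of *Kif5a* was 0.0049 to 0.26. The median over the members was -0.024, against -0.0089 for all tested genes. Sums of spinal cord markers were 2.84 to 4.41 FPKM in KO controls and 11.4 and 27.8 FPKM in KO PTX mice, and their part in these values was not tested.

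The loss of *Gpr37l1* was examined in control mice. No member passed the threshold (0 of 43, against 0.00663% of all tested genes), and 5 had an unadjusted p under 0.05 in edgeR and in DESeq2 (11.6%, against 7.54% of all tested genes). *Dync1i2* was at 55.2, 56.2 and 50.8 FPKM in KO controls against 41.6, 45.8 and 50.0 FPKM in WT controls. The groups did not overlap, with a log2 fold change of 0.25 (SE 0.079, 95% interval 0.070 to 0.42, adjusted p = 0.66 from edgeR). Without WT control 1 the value was 0.19 and its unadjusted p 0.037 (edgeR), the only member that kept a p under 0.05, and 5.87% of all tested genes had one.

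*Dynlt3* had 174, 167 and 164 FPKM in KO controls, above the 135 to 162 FPKM of WT controls. Its log2 fold change was 0.17 (SE 0.074, adjusted p = 0.66 from edgeR) and 0.10 without WT control 1. *Kif16b* had a log2 fold change of 0.21, *Dynlt1c* of -0.44 and *Dynlt1b* of -0.80, all 3 with overlapping groups. Without WT control 1 these were 0.12, -0.18 and -0.37. *Dynlt1b* was at 14.1, 6.80 and 6.45 FPKM in KO controls, so that 1 KO control stood near the second highest WT control. In all, 5 members lay above without overlap, namely *Dync1i2*, *Dync1i1*, *Dync1li2*, *Dynlt3* and *Kif5c*, and 1 below, *Dynlt1f*. Of all tested genes, 9.28% did not overlap. This comparison shares its WT controls with that of PTX in WT mice, so that the like values of *Dynlt1b*, *Dynlt1c*, *Dync1i2*, *Dynlt3* and *Kif16b* in both are not separate evidence.

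After PTX, KO mice were compared with WT mice, and neither group holds a control library. The SEs and p-values still come from the fit of all 11 libraries, controls included. The threshold was passed by 0 of 43 members, against 0.0133% of all tested genes, and 1 member had an unadjusted p under 0.05 in edgeR and in DESeq2, against 3.55% of all tested genes. This was *Kif22*, at 0.98, 0.68 and 0.80 FPKM in WT PTX mice and 1.34 and 1.19 FPKM in KO PTX mice. Both KO mice were above the 3 WT mice, with a log2 fold change of 0.68 (SE 0.24, 95% interval 0.14 to 1.23, adjusted p = 0.993 from edgeR). *Kif22* rested on 241 to 531 counts per library, and WT controls spanned 0.70 to 1.33 FPKM, about the range of all mice. Markers of dividing cells summed to 2.48 to 5.67 FPKM in WT PTX mice and 5.48 to 6.25 FPKM in KO PTX mice, and their part was not tested. Without overlap there were 4 members above, *Kif22*, *Kif9*, *Dync1h1* and *Dynlt1b*, and 1 below, *Kif2a*, and 20.2% of all tested genes did not overlap. *Dynlt1b*, with an unadjusted p under 0.05 in both comparisons with WT controls, had a log2 fold change of 0.10 here (95% interval -0.79 to 0.99).

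**Figure D5:**
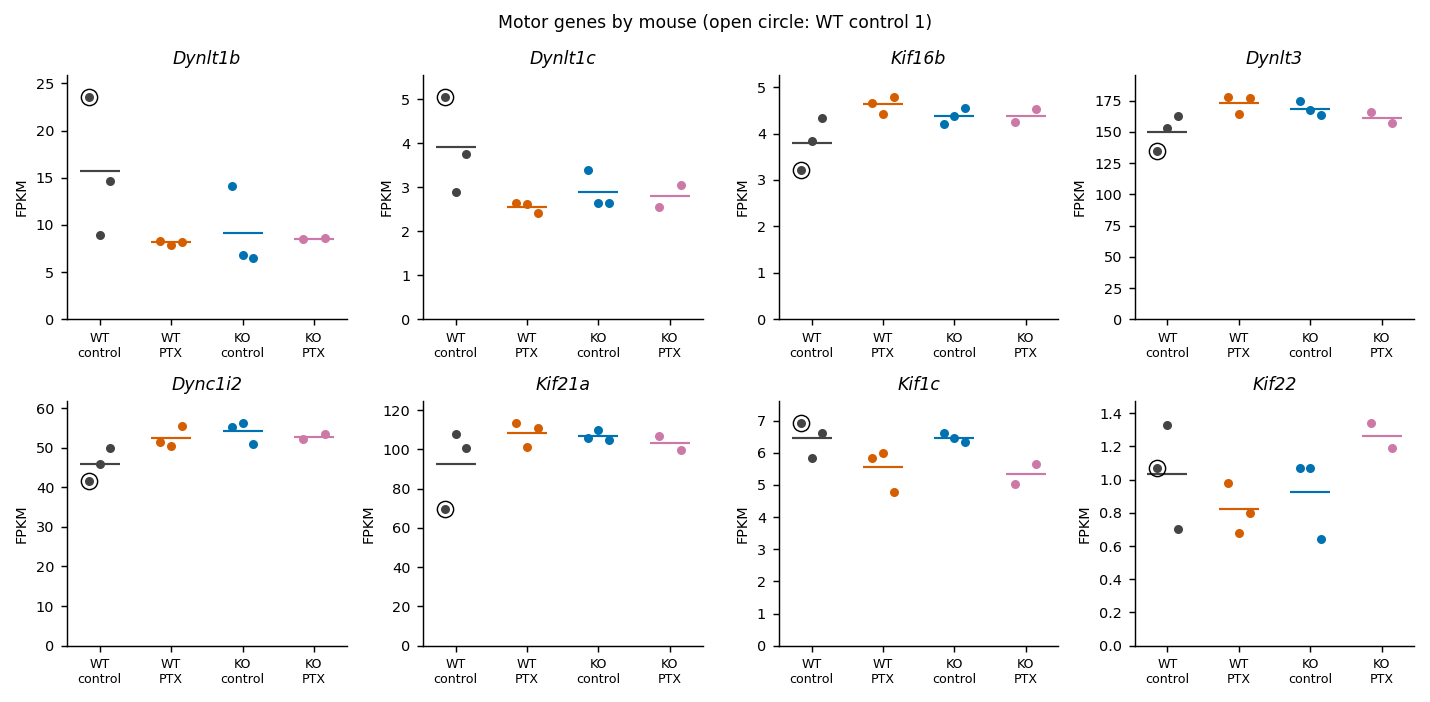
FPKM (y axis from 0) of 8 motor genes in each mouse by group, with group means as bars and WT control 1 ringed. WT control 1 is the highest mouse for *Dynlt1b*, *Dynlt1c* and *Kif1c* and the lowest for *Kif16b*, *Dynlt3*, *Dync1i2* and *Kif21a*, and the KO PTX mice lie above the WT PTX mice for *Kif22*.

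Over both treatments, 0 of 43 members passed for KO against WT, with 0 at an unadjusted p under 0.05 in edgeR and in DESeq2, against 0.0133% and 3.75% of all tested genes. Whether the PTX effect differed between genotypes was tested as an interaction. No member passed (0 of 43, against 0.00663% of all tested genes), and 3 had an unadjusted p under 0.05 in edgeR and 4 in DESeq2, against 6.3% of all tested genes. The difference of the PTX effect in KO minus that in WT was 0.84 for *Kif22* (SE 0.33), -0.27 for *Dynlt3* (SE 0.11) and -0.31 for *Kif16b* (SE 0.13) on the log2 scale, each with an adjusted p of 0.724 from edgeR. Without WT control 1 these were 0.87, -0.20 and -0.21, and 1 of the 3, *Kif22*, kept an unadjusted p under 0.05.

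*Kif21b* and *Kif14* lie on chromosome 1 at 0.964 and 1.30 Mb from *Gpr37l1*, the knocked-out gene, at chr1:136131389-136177998 and chr1:136466343-136531511. *Kif21b* was at 0.78, 1.04 and 1.1 FPKM in WT controls and 1.02, 0.89 and 0.99 FPKM in KO controls. The groups overlapped, and the log2 fold change was -0.0033 (95% interval -0.29 to 0.29). After PTX, WT mice had 0.85, 1.00 and 1.05 FPKM and KO mice 1.01 and 1.28 FPKM, with a log2 fold change of 0.21 (-0.11 to 0.53). *Kif14* was too low to be tested. Which strain the DNA around *Gpr37l1* came from in the KO mice was not analysed here.

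Groups of motors by role were compared by their counts and medians. In the comparison of PTX in WT mice, the 5 intermediate and light intermediate chains had a median log2 fold change of 0.11 with 4 of 5 above 0, the 8 tested light chains -0.14 with 2 of 8 above 0, the 6 dynactin genes -0.053 with 2 of 6 above 0 and the 3 kinesin-1 genes 0.13 with 3 of 3 above 0. The light chains include the copies *Dynlt1a*, *Dynlt1b*, *Dynlt1c* and *Dynlt1f*, which were all below 0 and whose values are not independent. *Dynlt1b* and *Dynlt1c* were also among the light chains at an unadjusted p under 0.05 in edgeR. Without WT control 1, the medians of the same groups were 0.072, -0.052, 0.0015 and 0.10. For PTX in KO mice, they were -0.048, -0.036, 0.021 and -0.063. In each of these groups and comparisons, 0 genes passed an adjusted p of 0.05 in edgeR or DESeq2. For PTX in WT mice the groups had 1, 3, 0 and 1 genes at an unadjusted p under 0.05, where 13.5% of all tested genes had one. Without WT control 1 they had 0, 0, 0 and 0, against 10.1% of all tested genes. Not every role group fell to 0 there. The 4 kinesin-2 genes kept 1 at that p in edgeR, *Kif3a*, which is also listed among the cilium motors. The 6 tested kinesin-3 genes kept 1, *Kif16b*. With all libraries, the median log2 fold changes of these 2 groups were 0.023 and -0.0038.

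Adaptors and regulators of the motors, which tie cargo to kinesin and dynein, were taken from a list of 45 genes, of which 43 were tested. For PTX in WT mice, 0 passed an adjusted p of 0.05, with 0 higher and 1 lower at an unadjusted p under 0.05 in edgeR, against 13.5% of all tested genes in either direction. Of the 43, 3 were higher and 1 lower at that p for PTX in KO mice (4.32% of all tested genes). The counts were 0 and 0 for KO against WT controls (7.54%) and 1 and 1 for KO against WT after PTX (3.55%). Over both treatments KO against WT had 2 higher and 1 lower (3.75%), and the difference of the PTX effect 1 and 0 (6.3%). DESeq2 called 0 of them in each comparison. The median log2 fold changes were -0.021, 0.017, -0.0081, 0.017, 0.0064 and 0.048 in these 6 comparisons, in the order given.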

How the data were processed

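The authors deposited 1 table of 36670 genes with FPKM values and estimated counts for each library. The submitters' processing notes name cutadapt, FastQC, HISAT2, StringTie and mm10 without roles or versions, and the kit was strand-specific, but whether counting used strand is not given in the sources used here. FPKM, per the authors, divides a gene's signal by its length and the size of its library. The deposited estimated counts are whole numbers with no normalization. Small counts were unevenly spread (WT control 1 had 573 genes at 3, 1369 at 4 and 334 at 5), so they were not read as a tally of fragments. The authors' comparisons and figures were not used.

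The test on counts was that of edgeR 4.0.16, run in R 4.3.3 (TMM, quasi-likelihood test, labelled sex as covariate, all 11 libraries in 1 fit) over the 15087 genes with a mean of at least 0.5 FPKM, with Benjamini-Hochberg adjustment over all of them and a threshold of 0.05. The SE was taken as the size of the log2 fold change over the root of F, and 95% intervals use the total degrees of freedom. The method was tested on simulated data. Alternatives were RLE scaling, no filter, no sex covariate, the replicate number as a block, DESeq2 1.42.0, limma 3.58.1 on log2(FPKM + 1) and log2(FPKM + 0.1), and each library left out in turn. Summaries used pandas 2.3.3, scipy 1.17.1 and numpy 2.4.6 under Python 3.11.15, and plots matplotlib 3.10.9.

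Groups and replicate numbers come from the sample descriptions. The sample titles number the KO PTX libraries differently, and the numbers of the descriptions are used throughout. The labels do not say outright that each library is a different mouse, and p-values measure the spread between libraries, called mice here. Female sex and the number 3 fall on the same libraries and cannot be told apart. Deviations of same-numbered WT and KO controls from their group means correlated at 0.11, 0.12 and 0.23. The numbers were treated as a possible pairing in that comparison and in no other. Fold changes and SEs in the Results come from the fit with labelled sex and without that pairing. GENCODE release M21 (GRCm38) holds all 60 members, 50 with the same coordinates, and 27 overlap no other gene there. Coding sequences were read from GENCODE.

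The members and lists were chosen with earlier results of these data known. The text names the axonal transport genes by role, per comparison up to 3 members each way with the largest fold change among those at an unadjusted p under 0.05 without overlap, the 3 highest and 3 lowest above 0 of each family, members within 10 Mb of *Gpr37l1*, and those called by edgeR or DESeq2, of which there were 0. Of the listed adaptors, only those past a threshold were to be named. The length relation in WT control 1 and members outside this rule, such as *Kif12*, *Kif11*, *Kif17*, *Kif19a* and the other members at an unadjusted p under 0.05 or without overlap, were added after their values were seen.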

Additional observations from a re-analysis of the deposited data

How the results depend on the processing

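No member passed an adjusted p of 0.05 in any of the 6 comparisons under any of the 18 alternatives, each library left out included (0 members by edgeR, DESeq2 or limma), and the smallest adjusted p of a member was 0.075. The number of members at an unadjusted p under 0.05 moved, from 2 to 10 for PTX in WT and from 0 to 8 for KO against WT in controls. With the replicate block, an unadjusted p under 0.05 was held by 8 members after PTX in WT mice, 0 after PTX in KO mice, 4 for KO against WT in controls, 1 after PTX, 0 over both treatments and 5 for the interaction. The correlation of same-numbered mice ran from -0.16 to 0.25 over 15 pairs, with 7 over 0.1. Of 30 differently numbered pairs, 4 were over 0.1. All 3 pairs of WT and KO controls were over 0.1 and were treated as possible pairs. There the replicate block changed no call (0 members, and 4 at an unadjusted p under 0.05 in edgeR against 5). In the other comparisons the numbers were not taken to pair mice. The log2 fold changes at an unadjusted p under 0.05 kept their direction. *Kif21b* between KO and WT controls, at -0.0033, changed sign to 0.010 without the filter, 0.0039 with the replicate block and 0.0019 with limma on log2(FPKM + 0.1). With each library left out in turn it ran from -0.11 to 0.097, and was above 0 without WT control 2 (0.097), WT control 3 (0.014), KO control 2 (0.0045) or KO control 3 (0.074). These values are all far inside its interval. The 10 highest members of the WT controls stayed the 10 highest when any WT control was left out (10 of 10 each time). Some spindle kinesins rest on few counts, such as *Kif14* with 7 to 31 per library, while *Kif22* had 241 to 531. An effect of depth on them was not tested. With 2 or 3 mice a group, small changes cannot be told from none.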
